A study of Mus musculus with 30 samples.

Results

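The lysosome is the acidic compartment in which cells break down proteins, glycans and lipids, and 32 genes that encode its soluble enzymes, its membrane proteins, its proton pump and 2 of its regulators were followed here among the 41549 genes of the table. They were chosen by name, with earlier results of these data known. They comprise 8 proteases, 7 glycosidases, 3 genes of sphingolipid and cholesterol handling, 7 membrane proteins, 2 regulators and 5 subunits of the vacuolar proton pump. RNA had been sequenced from 10 male mice in a subcutaneous white fat depot (inguinal, iWAT), the interscapular brown depot (iBAT) and the liver. Of these mice 5 were wild type (WT) and 5 were LFABP-/-, which carry no functional copy of Fabp1, the gene for liver fatty acid-binding protein. Both genotypes were fed a diet with 45% of energy as fat, rich in saturated fat, from 2 months of age for 12 weeks, and food was withdrawn 4 h before collection. Every mouse gave 1 library of each tissue, 30 in all, so no lean group and no cell-specific deletion is among the groups.

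Soluble lysosomal enzymes are made in the endoplasmic reticulum and carried to the lysosome by mannose 6-phosphate receptors or by sortilin, and the proton pump then provides the acid pH at which they work. In adipose tissue both adipocytes and macrophages use the compartment, and macrophages that surround dying adipocytes in obesity are known to enlarge it. Many lysosomal genes carry the motif CACGTG near their start, to which the transcription factor Tfeb and its relatives bind.

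RefSeq promoter windows, from 250 bases before to 50 bases after each start (GRCm38.p6), were found for 26 of the 32 genes and not for Ctsb, Ctsh, Asah1, Atp6v0d2, Atp6v1b2 and Atp6v1h. The palindrome CACGTG, which reads the same on both strands, was present in 11 of these 26 genes, against 8.09% of 27025 genes with a window. Its 8-base extension TCACGTGA, which contains CACGTG, was present in 7 of 26, against 1.12% of genes. The stretches below are shown because they belong to the 6 genes with a genotype difference in iBAT or liver that hold the motif. Each gives the site nearest the start on the strand of the gene, 5′ to 3′, with CACGTG in capitals.
Gla (chrX:134601182-134601211, minus strand): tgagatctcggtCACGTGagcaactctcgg
Ctsd (chr7:142387908-142387937, minus strand): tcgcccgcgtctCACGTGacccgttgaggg
Atp6v1a (chr16:44139373-44139402, minus strand): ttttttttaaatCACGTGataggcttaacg
Glb1 (chr9:114401018-114401047, plus strand): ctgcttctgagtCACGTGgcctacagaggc
Cln3 (chr7:126583340-126583369, minus strand): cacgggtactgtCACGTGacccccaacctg
Gaa (chr11:119267811-119267840, plus strand): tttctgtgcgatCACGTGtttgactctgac
The first base of the motif lay 194, 98, 131, 48, 121 and 140 bases before the RefSeq start of Gla, Ctsd, Atp6v1a, Glb1, Cln3 and Gaa. The stretches of Ctsd, Atp6v1a and Cln3 fall inside the span that the deposited table gives for the gene, and the others lie upstream of it. A match of letters is a description of the window and not evidence of binding.

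The deposited values sum to about 1000000 in each library and scale with gene length, so they compare genes as well as libraries, and they are called values here. The reads behind a value are unknown. Fabp1 was at 9165.5 to 12697.6 in liver of WT mice and at 0.2 to 51.8 in liver of LFABP-/- mice. In iWAT it was at 1.9 to 23.9 in WT mice and at 0.2 to 0.9 in 4 LFABP-/- libraries, but at 196.1 in the library labelled LFABP-/- replicate 1, which also had the highest mean level of hepatocyte markers in iWAT (6.04 on the log2 scale). In iBAT it was at 1.4, 0.2, 0.4, 5.1 and 8.7 in WT and at 0.4, 2, 21.2, 15 and 13.1 in LFABP-/- mice, so it did not separate the genotypes there and 3 libraries labelled LFABP-/- lay above every WT library. Lymphocyte markers stood at a mean of 5.34 to 7.18 on the log2 scale in 5 iWAT libraries (WT replicates 3 and 4, LFABP-/- replicates 2, 3 and 4) and at 0.92 to 1.48 in the other 5. In iBAT the 12 hepatocyte markers summed to 8 to 111.3 in WT mice and 207.4 to 2097.2 in LFABP-/- mice, with 11 of 11 tested markers called higher. The 18 skeletal muscle markers all had a negative difference in iBAT (median -1.22, summed 1830 to 47250 in WT and 325 to 20495 in LFABP-/- mice) with none called, and 4 of 7 brown adipocyte markers were called higher (median 0.50). In iWAT all 18 muscle and all 7 brown adipocyte markers had a positive difference (medians 1.52 and 1.62) with none called. Single libraries stood out in both. Summed muscle markers had a median of 176 in LFABP-/- and 216 in WT libraries, with 6177 in LFABP-/- replicate 4. Summed brown adipocyte markers were at 1671 in LFABP-/- replicate 2, at 93.6 to 136.7 in the other LFABP-/- libraries and at 38.2 to 139.1 in WT. The part of these cells in the lysosomal results was not tested. Adipocyte, brown adipocyte and hepatocyte markers were otherwise highest in the tissue they are named for. In a bulk sample, fewer cells of a type and less RNA per cell cannot be told apart.

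In iWAT, none of the 32 genes passed the threshold of an adjusted p under 0.1 (limma, Benjamini-Hochberg over all genes tested), where 1.45% of 14668 genes did (0.682% with a higher and 0.77% with a lower value in LFABP-/- mice). At an unadjusted p under 0.05 there were 6 of 32, against 10.4% of all genes. The fitted difference was below 0 for 28 of the 32 genes, against 39.4% of all genes. Their median was -0.18 on the log2 scale, while the median of all genes was 0.05. All 8 proteases and all 7 glycosidases had a negative difference (medians -0.19 and -0.20), as did 4 of 5 pump subunits (median -0.05).

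**Figure D1:**
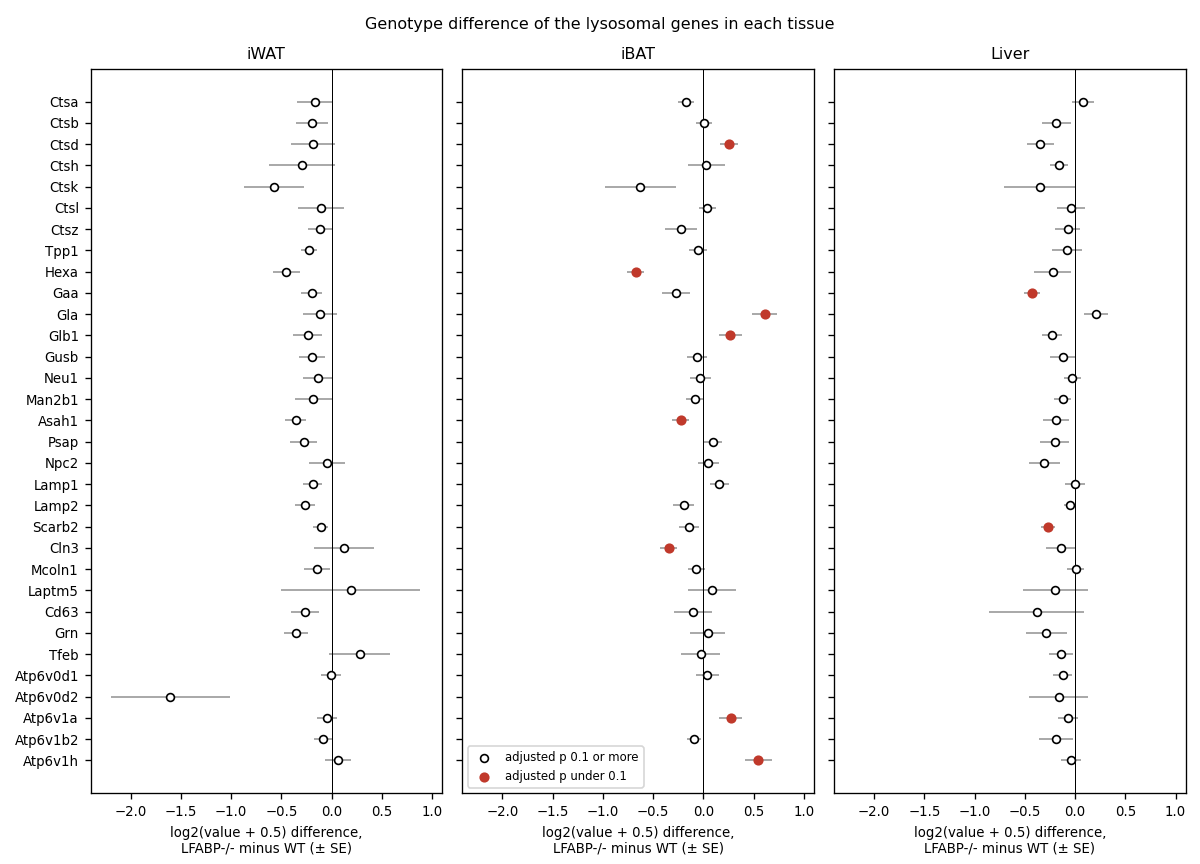
Difference between LFABP-/- and WT mice of each of the 32 lysosomal genes in iWAT, iBAT and liver, as the fitted difference of log2(value + 0.5) with its SE. Points for iWAT lie mostly left of 0 with none filled. Filled points mark 8 genes in iBAT, on both sides of 0, and 2 in liver, both left of 0. Atp6v0d2 was not tested in iBAT.

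Asah1, the acid ceramidase that splits ceramide, had the smallest p in iWAT. Its values were 64.3, 64, 84.1, 80.5 and 64.9 in the 5 WT libraries and 52.6, 52.3, 60.9, 55.3 and 55.7 in the LFABP-/- libraries. The groups did not overlap. The difference was -0.36 ± 0.10 (SE, n = 5 per genotype) with an adjusted p of 0.187 by limma, and the exact two-sided permutation p was 0.0079, the smallest that 252 assignments allow. Psap, the precursor of the saposins that present sphingolipids to their hydrolases, was at 2415.2, 2590.8, 3425.2, 2998.2 and 2398.2 in WT and at 2363, 2121.8, 2391.3, 2383.9 and 2057.5 in LFABP-/- mice. These groups also did not overlap, by a gap that is small beside the spread of the WT libraries, and the adjusted p was 0.54 (difference -0.28 ± 0.14). Asah1 and Psap were the only ones of the 32 without overlap, where 1.66% of all genes lay lower in LFABP-/- mice without overlap. The third gene of this group, Npc2, which binds cholesterol, had group means of 348.3 ± 56.5 and 342.3 ± 87.0 (SD).

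Hexa, the alpha subunit of beta-hexosaminidase, which degrades gangliosides, was at 196, 230.9, 285.1, 223.9 and 207.3 in WT and at 198.9, 134.2, 178.2, 175 and 150.4 in LFABP-/- mice. Only the highest LFABP-/- library reached the range of the WT libraries. The difference was -0.45 ± 0.13 with an adjusted p of 0.207. The other 6 glycosidases lay between -0.24 (Glb1) and -0.11 (Gla).

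Among the proteases, Tpp1, a tripeptidyl peptidase, was at 69.5, 63.8, 66.6, 68.2 and 59.3 in WT and at 55, 50.1, 58.3, 59.3 and 56.7 in LFABP-/- mice. The groups met only at 59.3, and the difference was -0.23 ± 0.08 (adjusted p = 0.282 by limma). Ctsk, a collagen-degrading cathepsin, had the most negative value of the group, with a mean of 149.6 ± 61.2 in WT and 95.9 ± 24.9 in LFABP-/- mice, and its 2 groups overlapped (difference -0.57 ± 0.30, adjusted p = 0.577). The other 6 proteases lay between -0.29 and -0.10.

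Of the membrane proteins, Lamp2, a glycoprotein of the limiting membrane, was at 73.8, 73.8, 72.4, 56.9 and 66.2 in WT and at 59.2, 53.5, 53.5, 53.8 and 65.2 in LFABP-/- mice, a difference of -0.26 ± 0.10 (adjusted p = 0.349). Its groups overlapped through 1 WT library. Mcoln1, the calcium channel of the lysosome, was at 20.2, 21.6, 21.8, 25.9 and 21.5 in WT and 16.2, 19.8, 24, 23.3 and 17.4 in LFABP-/- mice. These ranges overlapped, and the difference of -0.15 ± 0.13 had an adjusted p of 0.859.

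Grn, the progranulin gene, which serves lysosomal function, was at 287.3, 294.8, 399.6, 315.4 and 251 in WT and at 254.7, 210.2, 249.8, 244.3 and 239.4 in LFABP-/- mice. Only the lowest WT library lay within the LFABP-/- range, and the difference was -0.35 ± 0.12 (adjusted p = 0.287). Tfeb itself had a positive difference of 0.28 ± 0.31 (adjusted p = 0.92), from 11.3, 10.6, 17.6, 28.2 and 11 in WT and 12.2, 17.2, 25.5, 24.4 and 13.7 in LFABP-/- mice.

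The d subunit of the pump exists in a common form, Atp6v0d1, and a form known from osteoclasts and macrophages, Atp6v0d2. Atp6v0d2 was at 1.7, 7.9, 22.3, 10.6 and 6.5 in iWAT of WT and at 3.4, 0.9, 2, 4.9 and 1.2 in LFABP-/- mice. In 4 WT libraries it was above every LFABP-/- library, and in WT replicate 1 it was not. Its difference of -1.61 ± 0.59 was the most negative of the 32 genes (adjusted p = 0.33), and it was -2.07 to -1.23 when a library was left out, with a call in 1 of these 10 fits (without WT replicate 1, adjusted p = 0.0876) and an adjusted p of 0.323 to 0.595 in the other 9. Atp6v0d1 was at 199.1, 176.1, 180.7, 155.3 and 178.4 in WT and 197.2, 156, 163.6, 169.6 and 202.1 in LFABP-/- mice, with means of 177.9 and 177.7. Hexa, Asah1, Ctsk, Atp6v0d2, Glb1 and Gusb are named by the study from these same iWAT libraries, in gene sets reported as lower that include a lysosome set. Their direction here is therefore not independent evidence.

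**Figure D2:**
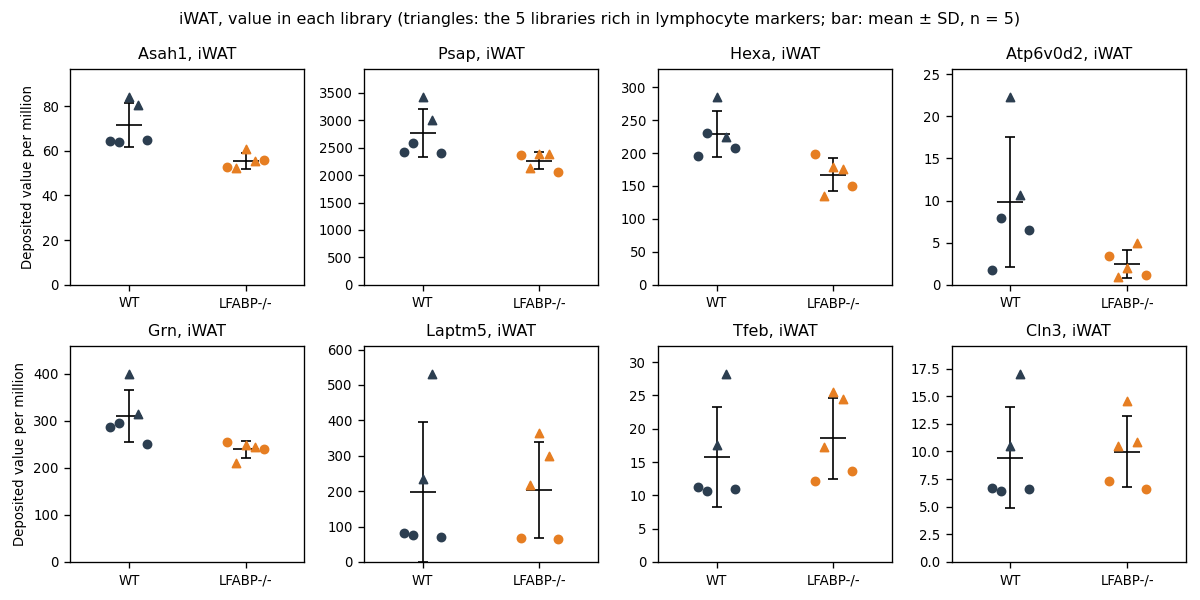
Value of 8 lysosomal genes in each iWAT library, with the mean and SD of 5 libraries per genotype and triangles for the 5 libraries rich in lymphocyte markers. Asah1 and Psap do not overlap between genotypes. Laptm5, Tfeb and Cln3 are higher in the triangles than in the circles of either genotype.

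Of the 24 macrophage markers in iWAT, 22 had a negative difference, with a median of -0.50, and Adgre1 (-1.01, adjusted p = 0.0731) and Cd14 (-0.62, adjusted p = 0.0829) were called lower. Their summed value was 2088 to 4418 in WT and 1777 to 2782 in LFABP-/- mice, and the 18 lymphocyte markers all had a positive difference with none called. The part of these cells in the differences of the lysosomal genes was not tested. Adgre1, and Cd14 within a gene set reported as lower, are also named by the study from these iWAT libraries. Their calls are therefore not independent evidence. The study further reports less staining for the Adgre1 protein in iWAT sections of LFABP-/- mice. With the lymphocyte level as a covariate, 6 of the 32 genes were called lower, namely Asah1 (-0.41, adjusted p = 0.027 by limma), Hexa, Grn, Atp6v0d2, Ctsa and Ctsh, where 7.79% of all genes were called and 4.38% lower. With libraries weighted by their estimated quality, 11 were called lower and 3 higher (Laptm5, Tfeb and Cln3), but that fit called 62.4% of all genes, 12.6% lower and 49.8% higher, and moved their median to 0.25. In the 5 libraries that were not rich in lymphocyte markers, none was called, where 0.0432% of 13880 genes were. The median of the lysosomal genes was then -0.17 and that of all genes 0.02. Laptm5, a lysosomal membrane protein of leukocytes, was at 218.5 to 530.6 in the 5 rich libraries and 65.1 to 82.6 in the others. Tfeb (17.2 to 28.2 against 10.6 to 13.7) and Cln3 (10.5 to 17 against 6.4 to 7.3) were separated in the same way, and no other of the 32 genes was, against 24.5% of genes tested that lay higher in the rich libraries.

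In iBAT, 8 of 31 genes tested were called, where 47.8% of 11614 genes were called in this comparison. Of the 8, 5 were higher (against 22.3% of genes) and 3 were lower in LFABP-/- mice (against 25.5%). Their median difference was -0.03, as was that of all genes. Only Gla and Hexa had no overlap, against 12.1% of genes higher and 14.3% lower without overlap.

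Hexa was at 48, 59, 49.8, 52.1 and 64.2 in iBAT of WT and at 32.7, 37.5, 33.7, 33.2 and 32.2 in LFABP-/- mice. Every LFABP-/- library lay below every WT library. The difference was -0.68 ± 0.09 with an adjusted p of 0.000345 by limma, and the exact permutation p was 0.0079. Gla, the alpha-galactosidase that removes terminal galactose from globotriaosylceramide, was at 2.1, 1.7, 1.8, 2.1 and 2.1 in WT and at 4.1, 4, 3.1, 2.7 and 2.6 in LFABP-/- mice. It rose by 0.61 ± 0.13 (adjusted p = 0.00429) at a low level. Glb1, the beta-galactosidase, rose from 5.4, 4.9, 6.1, 4.1 and 4.4 to 6.6, 6.2, 6.1, 6.7 and 4.8, with overlap (0.27 ± 0.12, adjusted p = 0.093). The glycosidases therefore moved in opposite directions, and the remaining 4 were not called, with Gaa at -0.27 ± 0.14 (adjusted p = 0.149).

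Ctsd, the aspartic protease cathepsin D and one of the most abundant of the 32, was at 907.5, 1007.1, 856.2, 852.7 and 870.6 in iBAT of WT and at 1230.2, 1188.6, 1002.5, 1057.2 and 910.4 in LFABP-/- mice. It rose by 0.26 ± 0.09 (adjusted p = 0.0416), with overlap at the lower end of the LFABP-/- range. The other 7 proteases were not called. Asah1 fell, from 15.6, 18, 15.3, 13.2 and 16.2 to 12.7, 15.3, 12.9, 12.8 and 12.8, with overlap (-0.22 ± 0.09, adjusted p = 0.0589). Psap and Npc2 of the same group had differences of 0.10 and 0.05.

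Cln3, a membrane protein whose loss causes a childhood storage disease of neurons, was at 4.1, 4.1, 3.8, 3.8 and 3.3 in iBAT of WT and at 2.5, 2.8, 3.3, 3.1 and 2.8 in LFABP-/- mice. The groups met at 3.3, and the fall was -0.35 ± 0.08 (adjusted p = 0.00859). The other 6 membrane proteins were not called. Mcoln1 was at 8.1, 9.6, 8.5, 8.6 and 7.8 in WT and 8, 9.4, 8, 8.2 and 6.9 in LFABP-/- mice.

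Of the pump subunits, Atp6v1h, which is part of the catalytic sector, was at 12.2, 12.4, 10.1, 9.7 and 10.7 in iBAT of WT and at 19.2, 20.7, 14.6, 16.1 and 12.2 in LFABP-/- mice. It rose by 0.55 ± 0.14 (adjusted p = 0.0104), and only the lowest LFABP-/- library lay in the WT range. Atp6v1a, the ATP-splitting subunit, was at 32.8, 31.8, 26.4, 26.7 and 26 in WT and at 43, 38.9, 30.5, 32.8 and 29.6 in LFABP-/- mice (0.27 ± 0.12, adjusted p = 0.0903). Atp6v0d1 was at 56, 64.3, 49.1, 48.6 and 54.4 in WT and at 67.5, 60.1, 51.8, 56.3 and 45.3 in LFABP-/- mice and was not called. Atp6v0d2 was at 0 to 0.4 in all 10 libraries and did not reach the mean of 1 needed for a test. Tfeb was at 7.2, 7.1, 6.4, 11.3 and 12.8 in WT and 7.2, 9, 8.1, 7.7 and 10.7 in LFABP-/- mice, a difference of -0.03 ± 0.19.

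The calls in iBAT changed in fits that left out libraries rich in hepatocyte markers or adjusted for these markers. The mean log2 level of these markers was -0.20 to 1.97 in WT and 2.74 to 5.60 in LFABP-/- libraries, without overlap. Their part therefore cannot be told apart from that of genotype. The main fit called 47.8% of all genes, more than either of these fits. When the 3 LFABP-/- libraries highest in these markers were left out, which leaves 2 of that genotype, Gla (0.36, adjusted p = 0.07), Hexa (-0.72, adjusted p = 0.0148) and Cln3 (-0.32, adjusted p = 0.0782) were still called, while Ctsz and Scarb2 were then called lower and 24.8% of all genes were called. The other 5 were not called, at 0.34 for Atp6v1h, 0.18 for Glb1, 0.13 for Ctsd, 0.12 for Atp6v1a and -0.27 for Asah1. With the hepatocyte level as a covariate, Hexa alone was called (-0.80, adjusted p = 0.0751), where 3.25% of all genes were, and Gla was at 0.084, Cln3 at -0.26 and Atp6v1h at 0.20. The hepatocyte markers were at a median of 0.164% to 1.53% of their liver level in iBAT of LFABP-/- mice and 0.00303% to 0.0790% in WT mice. The highest of these shares times the mean liver level came to 0.0529 for Gla, 0.166 for Atp6v1h and 5.60 for Ctsd. The iBAT means of LFABP-/- mice were above those of WT mice by 1.34, 5.54 and 179. These are 3 of the 5 genes called higher in the main fit. The part of liver RNA in their differences was not tested.

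**Figure D3:**
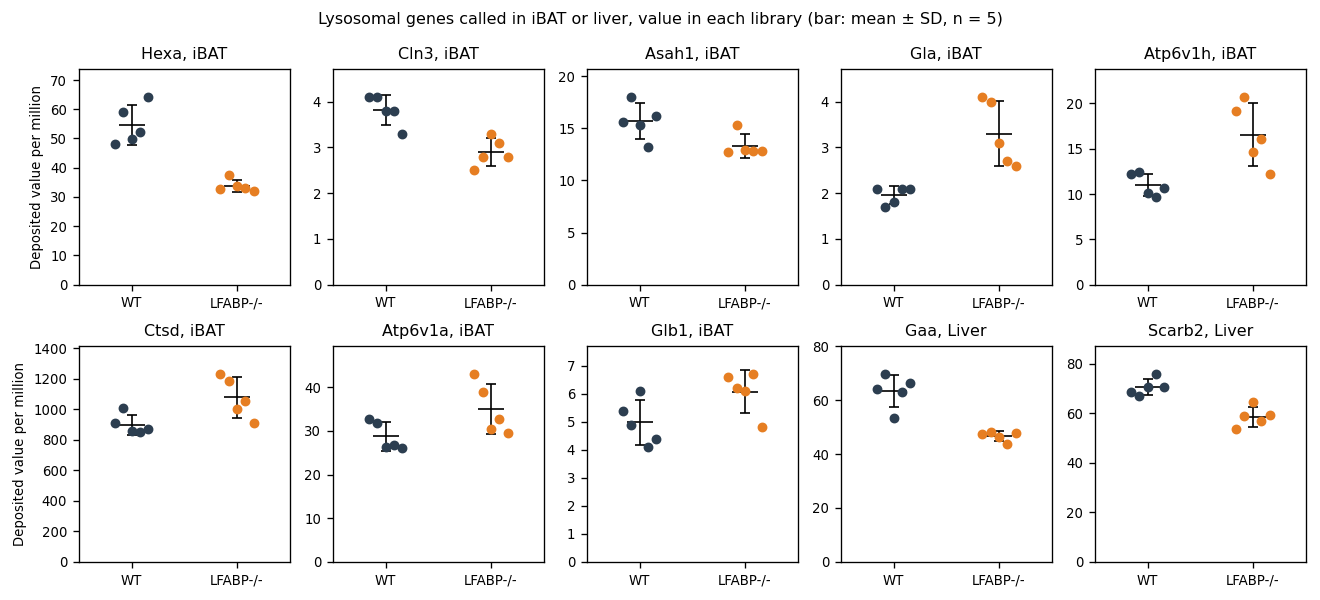
Value of the 8 lysosomal genes called in iBAT and the 2 called in liver, in each library, with the mean and SD of 5 libraries per genotype. Hexa, Gla, Gaa and Scarb2 do not overlap between genotypes and the other 6 do.

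In liver, 2 of the 32 genes were called, both lower in LFABP-/- mice, where 16.9% of 11629 genes were called and 13.9% were called lower. A difference below 0 was found for 29 of the 32 genes, against 67.2% of all genes. The median was -0.15, and that of all genes was -0.10. Mitochondrial transcripts took 16.9% to 18.1% of the total in liver of LFABP-/- mice and 12.1% to 15.1% in WT mice, without overlap. The median of all genes was -0.042 after rescaling without mitochondrial genes and 0.003 with median-ratio scaling. The count below 0 was not repeated on these scales. Gaa, which degrades glycogen in the lysosome, was at 64.1, 69.6, 53.5, 63 and 66.4 in WT and at 47.6, 48.2, 46.3, 43.6 and 47.7 in LFABP-/- mice (-0.43 ± 0.08, adjusted p = 0.0151). Scarb2, the receptor that carries glucocerebrosidase to the lysosome, was at 68.4, 67.1, 70.6, 75.8 and 70.8 in WT and at 53.7, 59.1, 64.5, 56.7 and 59.2 in LFABP-/- mice (-0.27 ± 0.07, adjusted p = 0.0422). The Gaa call held under the other scalings tried (adjusted p of 0.0382 with median-ratio scaling and 0.0412 after rescaling without mitochondrial genes), whereas Scarb2 was then not called (-0.15, adjusted p = 0.268, and -0.20, adjusted p = 0.145) and Gla was called higher with median-ratio scaling (0.31, adjusted p = 0.0512). Neither gene overlapped between genotypes, which held for 8.63% of all genes in this direction and 1.4% in the other.

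Ctsd had the third smallest p in liver, from 380.2, 401.4, 347.1, 355.4 and 572.7 in WT and 284.1, 310.1, 307.2, 324.7 and 369.6 in LFABP-/- mice (-0.35 ± 0.14, adjusted p = 0.126). WT replicate 5 was far above the other WT libraries, and this library also had the highest summed macrophage markers of liver (1367.4, against 335.5 to 538.5 in the other 9) and Kupffer cell markers (549, against 121.2 to 266.2). Laptm5 was at 42.7 in that library and at 9.7 to 16.2 in the other 9. Without it, Gaa (-0.41, adjusted p = 0.0218 by limma) and Scarb2 (-0.26, adjusted p = 0.0578) were still called, where 16.6% of all genes were. The median of the 32 genes was then -0.04 and that of all genes -0.05. Tfeb was at 5.8, 6.5, 5.5, 6.7 and 8 in WT and 5, 5.1, 5.9, 6.8 and 6.4 in LFABP-/- mice. Mcoln1 was at 13.8, 14.3, 11.7, 13.2 and 14.5 and at 12.8, 15.1, 13.4, 14.3 and 12.2, with no difference larger than the spread. Atp6v0d1 was at 87.5, 89.1, 73.2, 86.6 and 106.6 in WT and at 86.1, 84.6, 78.1, 80.4 and 75 in LFABP-/- mice, and Atp6v0d2 was near 1 in both (0.9, 1, 0.4, 1.3 and 2.1 against 0.6, 0.4, 1.3, 1.5 and 0.9).

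The genotype differences of the tissues were then set against each other by limma over the 30 libraries together, treating libraries of 1 mouse as correlated. Between iWAT and iBAT, 3 of 32 genes were called, where 11.2% of 15564 genes were. All of them had a lower difference in iWAT, as did 4.99% of genes. Gla was at 7.4, 7, 13.5, 8.8 and 7.8 in iWAT of WT and 7.5, 7.5, 8.9, 8.3 and 7.7 in iWAT of LFABP-/- mice, where the groups overlapped. The 3 genes were Gla (-0.72 ± 0.20, adjusted p = 0.0285), Glb1 (-0.51 ± 0.18, adjusted p = 0.0852) and Atp6v0d2 (-1.81 ± 0.60, adjusted p = 0.0658). Atp6v0d2 lay at 0 to 0.4 in iBAT and entered this fit only through its level elsewhere, so its value is that of iWAT and is not read as a difference between tissues. Between iBAT and liver, Atp6v1h (0.59 ± 0.18, adjusted p = 0.0322), Glb1 (0.50 ± 0.18, adjusted p = 0.0704) and Ctsd (0.60 ± 0.23, adjusted p = 0.096) were called, with the higher difference in iBAT, where 15.1% of genes were called and 10.3% in this direction. These calls changed with the scaling. With median-ratio scaling Glb1 was called (adjusted p = 0.0571), Atp6v1h (0.108) and Ctsd (0.182) were not, and Ctsa (-0.31, adjusted p = 0.0572) and Hexa (-0.51, adjusted p = 0.0824) were called with the lower difference in iBAT. After rescaling without mitochondrial genes Atp6v1h was called (adjusted p = 0.0797), Glb1 (0.144) and Ctsd (0.189) were not, and Hexa was called lower (-0.58, adjusted p = 0.052). Atp6v1h was at 13.3, 9.6, 10.1, 10.2 and 11.9 in liver of WT and 10.8, 9.9, 9.7, 11.7 and 11.2 in liver of LFABP-/- mice, which overlapped. The comparisons of iBAT with iWAT and with liver both contain the genotype difference of iBAT, with which the hepatocyte markers move. Within iBAT, Gla was at 0.084 and Glb1 at 0.24 with the hepatocyte level as a covariate, and neither was called. The part of these markers in the contrasts was not tested. Between iWAT and liver, none of the 32 was called by limma, against 3.54% of genes (1.02% with the lower difference in iWAT), and Atp6v0d2 alone had an unadjusted p under 0.05. Hexa had differences of -0.45, -0.68 and -0.22 in iWAT, iBAT and liver, and none of its contrasts between tissues was called with the deposited values. Of 31 genes tested in all 3 tissues, 13 had a negative difference in each, among them Hexa, Asah1, Gaa and Scarb2, and 0 had a positive one in each, against 19.7% and 14.7% of 10114 genes. These counts come from the deposited values and all libraries, and were not repeated under other scalings or with a library left out.

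The levels of the 32 genes were also compared between tissues. In iWAT, Psap (2515 ± 410, SD, n = 10), Ctsd (1820 ± 432) and Ctsb (954 ± 170) were the most abundant. In iBAT these were Psap (1119 ± 114), Ctsd (988 ± 136) and Ctsz (450 ± 86.5). In liver they were Lamp1 (508.5 ± 51.5), Psap (507 ± 99.1) and Ctsz (404 ± 55.4), and Lamp1 and Psap there did not differ beyond their spread. Summed over the 32 genes, the values were 7143 to 11457 in iWAT, 3261 to 4553 in iBAT and 2818 to 4494 in liver.

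Mitochondrial transcripts took a mean of 56.3% to 57.8% of the total in iBAT and 13.6% to 17.7% in the other tissues, so levels were also compared after rescaling the remaining genes to a sum of 1000000. On that scale 24 genes were lower and 3 higher in iBAT than in iWAT, 29 lower and 2 higher in liver than in iWAT, and 20 lower and 8 higher in liver than in iBAT, while the sums over the 32 genes were 8981 to 13307 in iWAT, 7777 to 10104 in iBAT and 3279 to 5232 in liver, so iWAT and iBAT overlapped. In the same order of comparisons 65%, 80.8% and 67.2% of all genes were lower and 20.5%, 13.6% and 18.8% higher (85.5%, 94.4% and 86% called in either direction). The medians of the 32 genes were -0.67, -1.17 and -0.37, and those of all genes -0.56, -1.29 and -0.73. Directions that held under all 3 scalings tried, with deposited values and median-ratio scaling as the others, were fewer: 16 genes lower in iBAT than in iWAT, 13 lower and 2 higher (Ctsh and Lamp2) in liver than in iWAT, and 10 lower and 8 higher in liver than in iBAT.

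The 3 genes with the largest difference in mean log2(value + 0.5) between any pair of tissues on this scale were Ctsk, Cd63 and Ctsh. Ctsk stood at 148 ± 63.8 in iWAT, 7.89 ± 6.68 in iBAT and 1.38 ± 1.00 in liver (SD, n = 10). Cd63, a tetraspanin, stood at 195 ± 35.0, 35.8 ± 7.80 and 6.17 ± 5.80. Ctsh, an aminopeptidase, showed another order, with 64.1 ± 23.2 in iWAT, 7.70 ± 1.82 in iBAT and 116 ± 12.0 in liver, and Lamp2 was also highest in liver at 139 ± 5.47. The pump subunits Atp6v1a and Atp6v1b2 were lower in liver than in either fat depot.

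**Figure D4:**
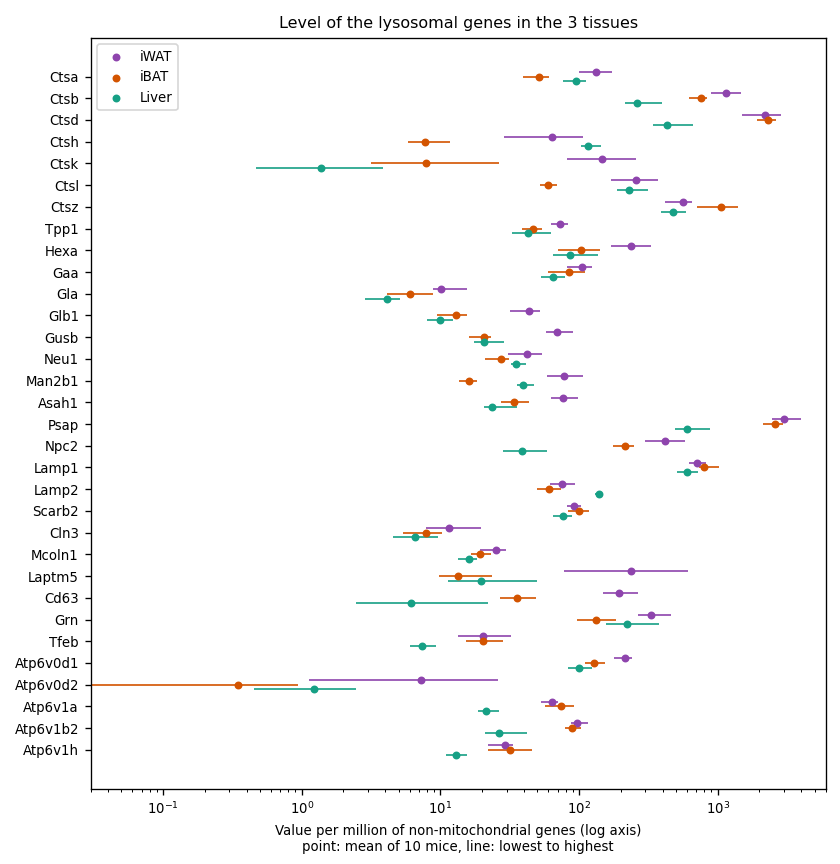
Level of each lysosomal gene in iWAT, iBAT and liver rescaled to a sum of 1000000 over non-mitochondrial genes, on a log axis, with the mean of 10 mice and a line from the lowest to the highest. Ctsk and Cd63 are furthest right in iWAT, and Ctsh and Lamp2 are furthest right in liver. Libraries at 0, which occur for Atp6v0d2 in iBAT, lie off the left end.

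In iWAT no gene was called among 32 other hydrolases, 22 other membrane proteins, 16 tested pump subunits, 18 sorting and regulatory genes or 28 autophagy genes, with 4, 2, 2, 3 and 3 at an unadjusted p under 0.05 by limma. The lowest p among the hydrolases was that of Scpep1 (-0.30, adjusted p = 0.251) and among the membrane proteins that of Slc11a1 (-0.79, adjusted p = 0.169). Slc11a1 is also named by the study from these iWAT libraries. Of the hydrolases 28 of 32 had a negative difference, of the pump subunits 6 of 16. In iBAT 16 of 32 other hydrolases were called, 13 of them lower (against 47.8% of all genes, 25.5% lower), including Idua (-0.87, adjusted p = 4.39e-05) and Pla2g15 (-0.99, adjusted p = 0.000246), while Lipa, the acid lipase, rose (0.59, adjusted p = 0.00866). Among the 15 pump subunits tested there, 5 rose and 3 fell (against 22.3% and 25.5% of all genes), among them Atp6v0c (0.44, adjusted p = 0.00092), Atp6v1e1 (0.47, adjusted p = 0.00404) and Atp6ap1 (-0.28, adjusted p = 0.00201). These iBAT calls were not examined in the fits that left out hepatocyte-high libraries or adjusted for hepatocyte markers. Those fits called 24.8% and 3.25% of all genes. In liver 6 of 32 other hydrolases fell and none rose (against 13.9% and 3.08% of all genes), with Ctsc (-0.80, adjusted p = 0.022), Gm2a (-0.54, adjusted p = 0.0185) and Lipa (-0.47, adjusted p = 0.0381). Npc1, which exports cholesterol together with Npc2, also fell there (-0.61, adjusted p = 0.0176). Of 28 autophagy genes 10 were called lower and 1 higher (against 13.9% and 3.08% of all genes). The genes of these other lists were not examined under other scalings. Of all liver genes, 7.19% were called lower with median-ratio scaling and 6.46% after rescaling without mitochondrial genes.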

How the data were processed

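RNA was measured in iWAT, iBAT and liver of 5 WT and 5 LFABP-/- mice. Per the study's methods, which describe iWAT, the authors selected poly(A) RNA, sequenced it single-end and aligned the trimmed reads to GRCm38, using the gene annotation of Ensembl and the program CLC Genomics Workbench. The deposited values are headed RPKM, but each library sums to 999967 to 999996, so they are on the TPM scale and were treated as TPM. No read counts are given, so precision rests on the spread between mice and no counting interval was computed.

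Genes with a mean of at least 1 over the 10 libraries of a tissue entered a linear model of log2(value + 0.5) in limma 3.58.1 under R 4.3.3 (intensity trend, two-sided, Benjamini-Hochberg over all genes tested), with a call at an adjusted p under 0.1. The log2 scale with a pseudocount understates the change of low genes. Tissues were compared in 1 fit with the mouse as random block (statmod 1.5.0), after removing 37 mitochondrial genes for levels. Single genes were also tested by an exact permutation of 252 assignments. Tables and figures were made in Python with pandas and matplotlib.

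The 32 genes and the lists were chosen with earlier results of these data known. Every library's value is given for genes called in a tissue, the 6 smallest p in iWAT and 3 in each of iBAT and liver, the 3 smallest p between tissues, Tfeb, Mcoln1, Atp6v0d1 and Atp6v0d2. Psap in iWAT and Laptm5 were named outside this rule, after their values were seen. The fits were tested on simulated data. No label says that replicate numbers pair WT with LFABP-/- mice. Alternatives covered the pseudocount, filter, scaling, library weights, replicate block, library name prefix, marker covariates, threshold and leaving out each library. The prefix was coded per mouse. For iWAT of WT replicates 4 and 5 this code is that of their iBAT and liver libraries and differs from the iWAT library name. The hepatocyte and iBAT muscle covariates and the omission of 3 iBAT libraries were added after the data were seen.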

Additional observations from a re-analysis of the deposited data

Results flagged for a closer look

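Single libraries stood apart in 4 groups of 5, of 54 such groups examined, and chance alone flags about 1 in 20. The values were 25.9 for Mcoln1 in iWAT of WT replicate 4, 37.5 for Hexa and 15.3 for Asah1 in iBAT of LFABP-/- replicate 2, and 572.7 for Ctsd in liver of WT replicate 5.

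Genotype differences that differed between tissues by the test of the difference were -0.72 for Gla and -0.51 for Glb1 (iWAT minus iBAT), and 0.59 for Atp6v1h, 0.50 for Glb1 and 0.60 for Ctsd (iBAT minus liver). The test also passed Atp6v0d2 (-1.81, iWAT minus iBAT), but this gene lay at 0 to 0.4 in iBAT, so the value is not read as a difference between tissues. The calls for iBAT minus liver changed with the scaling. The hepatocyte markers that are higher in iBAT of LFABP-/- mice move with the iBAT genotype difference, which enters all of these contrasts. Their part in the contrasts was not tested.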

How the results depend on the processing

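Percentages in brackets are the shares of all genes called in the same direction by the same fit. In iWAT, where no lysosomal gene was called, 1 (Asah1) was called lower after rescaling without mitochondrial genes (0.782%). In 1 fit of all 30 libraries 4 were called lower (3.12%), and 6 with the lymphocyte covariate (4.38%). With library weights 11 were lower (12.6%) and 3 higher (49.8%), and when a library was left out 0 to 1 were lower (0.116% to 1.11%). In iBAT the 5 genes called higher (22.3%) became 3 with no filter (13.7%), a filter at a mean of 5 (26.4%), rescaling (18%) or an adjusted p under 0.05 (18.6%). They also became 3 in 1 fit of all libraries (13.3%) or with a muscle covariate (21.2%). They became 1 without the 3 hepatocyte-high libraries (8.67%) and 0 with the hepatocyte covariate (0.835%). When a library was left out they were 3 to 6 (19.1% to 25.9%). They were 3 without WT replicate 4 or 5 or LFABP-/- replicate 1, 2 or 4. The 3 called lower (25.5%) became 7 after rescaling (30.8%), 5 with library weights (27.3%) and 1 with the hepatocyte covariate (2.41%). They were 2 to 7 when a library was left out (21.9% to 25.8%), with 7 without LFABP-/- replicate 2 (24.2%). In liver, median-ratio scaling gave 1 higher (9.98%) and 1 lower (7.19%) and rescaling 1 lower (6.46%), both without Scarb2. A term for the library name prefix gave 5 lower (14.6%), where the main fit gave 2 (13.9%).

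Replicate numbers were shared between genotypes, but same-numbered samples did not deviate together throughout. A fit with the replicate number as a block called 5 higher and 5 lower in iBAT, where 22.7% and 26.1% of all genes were. It called 3 lower in liver (Ctsd in addition), against 8.56% of all genes, and 0 in iWAT, against 1.69% in either direction.

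For the differences between tissues, iWAT minus iBAT gave 1 lower at an adjusted p under 0.05 and 6 with median-ratio scaling (0 to 5 lower and 0 to 1 higher when a mouse was left out: 0 lower without LFABP-/- replicate 2, 1 without WT replicate 2 or 3 or LFABP-/- replicate 3, 5 without LFABP-/- replicate 5). For iBAT minus liver, 1 was higher at an adjusted p under 0.05, after rescaling and with median-ratio scaling, with 1 lower and 2 lower under the last pair (0 to 3 higher and 0 to 1 lower when a mouse was left out: 0 higher without LFABP-/- replicate 2, 1 without WT replicate 5 or LFABP-/- replicate 1 or 4). For iWAT minus liver, median-ratio scaling gave 1 lower, leaving out a mouse 0 to 1. The share of all genes called was not computed for these alternative fits between tissues. Tissue levels depended on scaling: with deposited values 21 genes were higher and 10 lower in liver than in iBAT and 0 higher in iBAT than in iWAT, and with median-ratio scaling 21 and 11, 12 higher in iBAT than in iWAT, and 16 higher and 13 lower in liver than in iWAT. Leaving out a mouse gave 2 to 5 higher in iBAT than in iWAT.

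Differences near 0 changed sign. Atp6v0d1 in iBAT was -0.013 after rescaling and with the muscle covariate, -0.10 without the 3 libraries, -0.15 with the hepatocyte covariate and -0.030 to 0.11 when a library was left out. In iWAT it was 0.0084 with the prefix term, 0.12 without the lymphocyte-rich libraries, 0.047 with their covariate, 0.018 with the muscle covariate and -0.053 to 0.040 when a library was left out. Tfeb in iBAT was 0.022 with median-ratio scaling, 0.037 with weights, 0.070 without the 3 libraries, 0.12 with the muscle covariate and -0.13 to 0.11 when a library was left out. Mcoln1 was 0.058 with weights in iWAT and -0.042 to 0.042 in liver when a library was left out, Atp6v0d2 in liver 0.041 with weights, and Atp6v1h -0.068 for iWAT minus liver with median-ratio scaling. The causes were not tested, and the reads behind low values are unknown.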
